A study of Homo sapiens with 8 samples.

Results

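The MHC class II genes and the gene of their invariant chain were followed in MonoMac 6, a human cell line established from a monocytic acute myeloid leukaemia. The set was named by symbol: HLA-DRA, HLA-DRB1, HLA-DPA1, HLA-DPB1, HLA-DMA, HLA-DMB and CD74. Of these 7 genes, 5 had a row among the 11530 genes of the deposited table, and HLA-DRB1 and HLA-DMB were not analysed here. The treated group was 4 libraries of cells given APRIL (a cytokine of the TNF family, gene TNFSF13) for 24 h at 100 ng/mL in medium without serum, and the control group was 4 libraries of cells without APRIL. Both groups had baseline cytokines that the series text does not name. The growth protocol gives 10% serum without saying whether the control cells stayed in it, so APRIL and a possible difference in serum cannot be told apart. The cells are a single line, and the labels do not say whether the libraries came from separate cultures, so a p-value here reflects only how far these libraries spread, and that spread may be technical. The column headers name the group but number no replicates, so a library is named by its group and its place among the 4 columns of that group, and lists of 4 values follow that order.

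MHC class II molecules are dimers of an alpha and a beta chain that show peptides from the endocytic pathway to helper T cells. The invariant chain, encoded by CD74, binds the newly made dimers, blocks their groove and takes them to the endosome, where cathepsins cut it down to a short fragment. HLA-DM, itself a dimer of HLA-DMA and HLA-DMB, then exchanges that fragment for peptide. Monocytes and B cells make these genes together through the co-activator CIITA, which docks on the RFX, CREB and NF-Y factors at the promoters, and interferon gamma raises CIITA.

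The NF-Y site is a CCAAT box, so the stretches upstream of the genes are shown with that box in capitals. The RefSeq windows of GRCh38.p14 matched 4 of the 5 genes (CD74, HLA-DPA1, HLA-DPB1 and HLA-DMA) with 5 windows, of which the 250 bases before the start are used. Windows of CD74, the gene whose groups did not overlap, and of HLA-DMA and HLA-DPB1, whose boxes come as pairs, are given 5′ to 3′ on the strand of the gene. They lie at chr5:150412911-150413160 (minus strand, CD74), chr6:32953098-32953347 (minus strand, HLA-DMA) and chr6:33075740-33075989 (plus strand, HLA-DPB1).
CD74: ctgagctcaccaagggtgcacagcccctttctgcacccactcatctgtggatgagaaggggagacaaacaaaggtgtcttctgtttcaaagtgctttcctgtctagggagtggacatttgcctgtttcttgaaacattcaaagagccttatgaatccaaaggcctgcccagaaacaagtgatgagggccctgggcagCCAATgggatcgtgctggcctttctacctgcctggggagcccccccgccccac
HLA-DMA: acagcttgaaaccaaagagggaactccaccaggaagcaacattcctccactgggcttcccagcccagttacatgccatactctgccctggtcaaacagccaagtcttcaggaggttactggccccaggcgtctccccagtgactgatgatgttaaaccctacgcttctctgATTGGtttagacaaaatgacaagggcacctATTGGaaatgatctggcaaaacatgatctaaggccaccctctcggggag
HLA-DPB1: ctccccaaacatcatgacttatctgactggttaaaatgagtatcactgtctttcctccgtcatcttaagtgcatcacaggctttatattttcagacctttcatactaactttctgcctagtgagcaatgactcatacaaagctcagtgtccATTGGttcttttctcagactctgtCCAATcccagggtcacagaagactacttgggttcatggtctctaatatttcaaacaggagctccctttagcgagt
The search took ATTGG on either strand, which reads CCAAT on the other. CD74 had 1 box, starting 53 bases before the start of the gene (position -53). HLA-DMA had 2, at -79 and -49, and HLA-DPB1 had 2 in opposite orientation, at -99 and -75. Neither window of HLA-DPA1 held the motif. Of all 35116 RefSeq windows of this length, 32.0% held it. The core TGACG, which CREB factors bind, searched on both strands, was in the HLA-DPB1 window and both HLA-DPA1 windows and in 21.2% of all windows. These letters are a description of the windows and not of binding.

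The deposited values are log2 of reads scaled by library and by gene, and whole reads could be recovered from them for 10764 of the 11530 genes, all 5 genes of the set included. Over the recovered genes the libraries held 742703 to 4314011 reads with APRIL and 1114610 to 2392386 reads in control, a 5.81-fold range, and APRIL column 3 was the shallowest. No gene of the 11257 tested passed limma's adjusted threshold of 0.05 between APRIL and control, which is 0% of genes, and 1344 (11.9%) had an unadjusted p under 0.05. Across 10359 genes, which are not independent replicates, the APRIL minus control difference had a Spearman's rho of -0.54 with transcript length and 0.51 with GC content. Of 18 monocyte and myeloid blast markers 16 were in the table. They included CD14, the endotoxin co-receptor, with 40 to 125 reads with APRIL and 27 to 83 in control, and MPO, while CD68 and CD4 had no row there. Of 9 B cell markers 6 were in the table, among them PAX5 with 17 to 215 reads with APRIL and 38 to 96 in control, and MS4A1 had no row there. Erythroid, stromal, epithelial and endothelial markers had no row, and 2 of 8 T and NK cell markers and 4 of 14 dendritic cell markers did.

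None of the 5 genes passed the test, and 1 of them, CD74, had an unadjusted p under 0.05 with the higher level under APRIL, as did 6.25% of all tested genes. CD74 was also the gene of the set whose APRIL values all lay above its control values, where 3.62% of all tested genes did so and 7.81% were apart in either direction. HLA-DRA, HLA-DPA1 and HLA-DMA had a higher mean with APRIL and HLA-DPB1 a lower one, each with overlapping groups. The median change of the 5 genes was +0.33 on the log2 scale, beside -0.0053 over all tested genes. That median was 0.17 without APRIL column 3 and -0.0069 once the trends of values with transcript length and GC content were removed library by library. In bulk RNA, fewer cells that make a gene and less RNA per cell cannot be told apart.

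**Figure D1:**
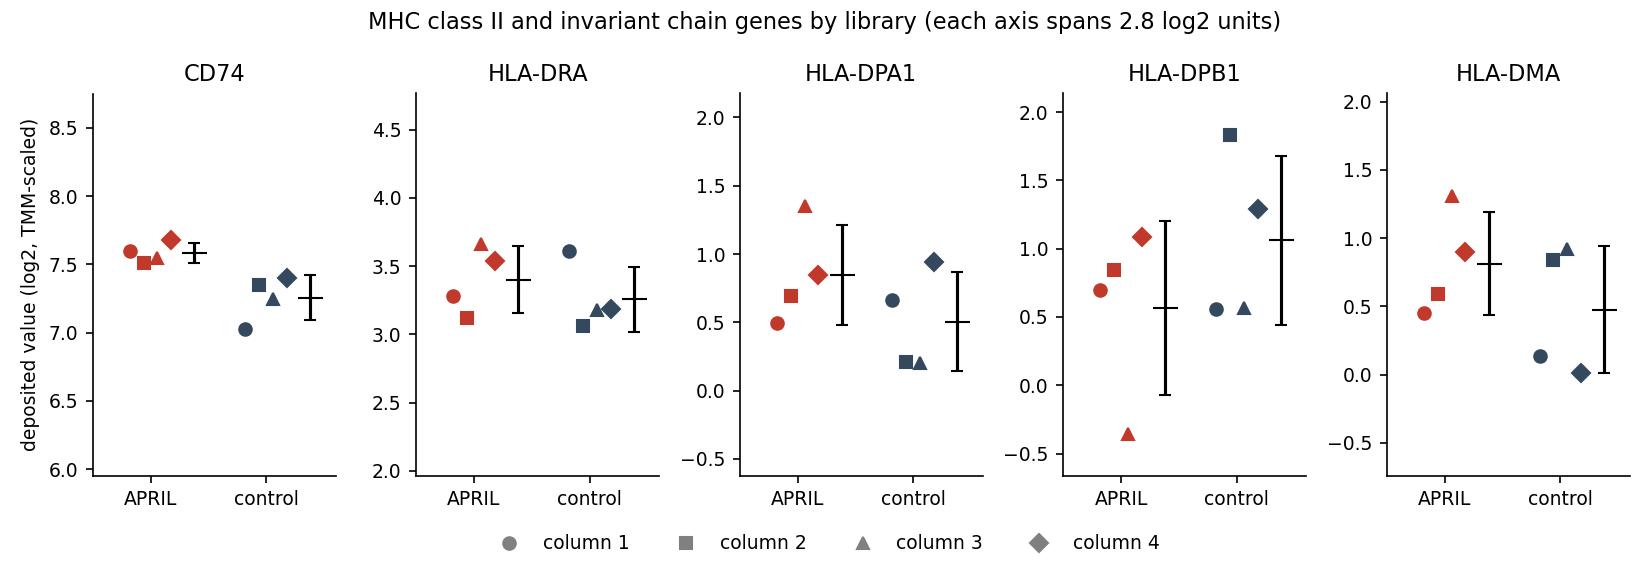
Deposited values (log2, TMM-scaled) of the 5 genes in each library, APRIL left and control right, with the symbol giving the column and the bar the mean and SD of 4 libraries; each axis spans the same number of log2 units. For CD74 the lowest APRIL library, at 7.51, lies above the highest control library, at 7.40, and for the other genes the groups overlap.

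CD74 encodes the invariant chain. Its log2 values were 7.60, 7.51, 7.55 and 7.68 with APRIL and 7.03, 7.35, 7.25 and 7.40 in control. All 4 APRIL libraries lay above all 4 control libraries, and control column 1 was the lowest of the 8. The means were 7.58 ± 0.073 with APRIL and 7.25 ± 0.16 in control (SD, n = 4 each). The change was +0.33 ± 0.12 (SE, 95% interval 0.056 to 0.60), a 1.25-fold difference, with an adjusted p of 0.3999 over all tested genes in limma, so it did not pass. The exact permutation test (two-sided, 70 relabelings) gave CD74 an adjusted p of 0.352 over all genes. That was the smallest adjusted p of any gene in that test. Every gene whose groups do not overlap shares the smallest unadjusted p that 70 relabelings allow, 0.0286, so CD74 could not have passed it. The adjusted p ran from 0.182 to 0.983 over the alternatives tried. The reads behind these values were 679, 1203, 194 and 798 with APRIL and 331, 275, 349 and 616 in control. The pooled SD within groups, 0.13 on the log2 scale, was 1.77 times the SD that counting alone would give.

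The difference in CD74 held its size when any library was left out, from 0.25 without control column 1 to 0.37 without control column 4. It did not hold with the length and GC trends removed. CD74 then stood at 7.54, 7.59, 7.05 and 7.49 with APRIL and at 7.48, 7.42, 7.35 and 7.43 in control. The groups overlapped, APRIL column 3 was the lowest library, and the change was -0.0069 ± 0.12 (SE, 95% interval -0.28 to 0.27). The other APRIL values, 7.54, 7.59 and 7.49, each lay above every control value. With the trends removed no library was left out, so the part of APRIL column 3 in that change was not tested. The longest CD74 transcript, at 1727 bases, is at percentile 13.6 of the genes by length, and its GC content of 58.7% is at percentile 82.9. The removal of trends took that transcript, where the principal transcript of CD74 has 981 bases. The change with the shorter length was not computed, so the -0.0069 is uncertain. In the authors' deposited table CD74 had a fold of 1.25 and a p of 0.0109, whose header does not say whether it was adjusted. The unadjusted p of CD74 in limma was 0.0225.

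HLA-DRA encodes the alpha chain of HLA-DR, which pairs with every DR beta chain. Its log2 values were 3.28, 3.12, 3.66 and 3.54 with APRIL and 3.61, 3.06, 3.18 and 3.18 in control. The highest library was in the APRIL group and the lowest in control, and the groups overlapped, with control column 1 second in order. The means were 3.40 ± 0.25 with APRIL and 3.26 ± 0.24 in control (SD, n = 4 each), and the change was +0.14 ± 0.18 (SE, 95% interval -0.26 to 0.55), with an adjusted p of 0.674 in limma. This interval takes in values below 0 as well as a difference the size of that in CD74. The value ran from 0.054 without APRIL column 3 to 0.26 without control column 1, and was -0.053 with the length and GC trends removed. Reads were 107, 180, 41 and 142 in the APRIL libraries and 97, 44, 65 and 104 in the control libraries.

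HLA-DPA1 and HLA-DPB1 encode the alpha and beta chains of HLA-DP. They lie head to head on opposite strands, and their GENCODE models overlap (chr6:33064569-33080775 for HLA-DPA1 and chr6:33075926-33087201 for HLA-DPB1, GRCh38). The library kit does not mark the strand, so reads from the shared stretch cannot be told apart and both values are uncertain. HLA-DPA1 stood at 0.50, 0.70, 1.35 and 0.85 with APRIL and at 0.66, 0.21, 0.20 and 0.94 in control (log2). HLA-DPB1 stood at 0.70, 0.84, -0.36 and 1.09 with APRIL and at 0.56, 1.83, 0.57 and 1.29 in control. APRIL column 3 was thus the highest library for the alpha chain and the lowest for the beta chain, and both genes overlapped between groups.

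The change was +0.34 ± 0.26 for HLA-DPA1 (SE, 95% interval -0.23 to 0.92, adjusted p = 0.489 in limma) and -0.49 ± 0.38 for HLA-DPB1 (-1.34 to 0.35, adjusted p = 0.495). Few reads lay behind either gene. HLA-DPA1 had 11 to 46 reads in the APRIL libraries and 8 to 30 in the control libraries. HLA-DPB1 had 2 to 36 with APRIL and 10 to 27 in control. The 2 reads of HLA-DPB1 in APRIL column 3 have an exact 95% Poisson interval of 0.242 to 7.22 reads, which covers counting error only. Without APRIL column 3 the changes were 0.17 for HLA-DPA1 and -0.19 for HLA-DPB1, without control column 2 they were 0.24 and -0.24, and without control column 4 HLA-DPA1 was at 0.49. With the length and GC trends removed they were 0.51 and -0.67, and with libraries weighted by quality HLA-DPA1 was at 0.045. The removal of trends took the longest transcript of each gene. For HLA-DPA1 that has 5025 bases, at percentile 71.1 by length, where its principal transcript has 1704 bases. Its value with the shorter length was not computed, so the 0.51 is uncertain. The pooled SD within groups was 1.03 times the SD from counting alone for HLA-DPA1 and 1.38 times for HLA-DPB1.

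Since both chains are needed for HLA-DP, their difference within each library was also compared, which cancels what scales the whole library. HLA-DPA1 minus HLA-DPB1 was -0.20, -0.15, 1.71 and -0.24 with APRIL and 0.11, -1.62, -0.37 and -0.35 in control (log2). A single library stood apart in each group, APRIL column 3 above and control column 2 below, and the other 6 lay between -0.37 and 0.11. The group means were 0.28 ± 0.95 with APRIL and -0.56 ± 0.74 in control (SD, n = 4 each). Their difference of 0.84 gave a two-sided exact permutation p of 0.286, where the smallest p that 70 relabelings allow is 0.0286. It was 0.36 without APRIL column 3 and 0.48 without control column 2. Over the other fits without 1 library it ran from 0.90 without control column 3 to 1.06 without control column 1.

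HLA-DMA encodes the alpha chain of the peptide exchanger HLA-DM. Its log2 values were 0.45, 0.59, 1.31 and 0.90 with APRIL and 0.14, 0.84, 0.92 and 0.013 in control. The control libraries split into 2 low and 2 high values, and the APRIL libraries lay within and above that range. The means were 0.81 ± 0.38 with APRIL and 0.48 ± 0.47 in control (SD, n = 4 each), and the change was +0.33 ± 0.29 (SE, 95% interval -0.30 to 0.97, adjusted p = 0.534 in limma). Reads were 21, 44, 11 and 32 in the APRIL libraries and 12, 13, 19 and 16 in the control libraries. The value was 0.17 without APRIL column 3, 0.18 without control column 4, 0.22 without control column 1 and 0.057 without APRIL column 3 and control column 1. The weighting of libraries by quality gave 0.077, and removal of the length and GC trends gave 0.15. That removal took the longest transcript of HLA-DMA, at 1735 bases, where its principal transcript has 1123, so the 0.15 is uncertain. The GENCODE model of HLA-DMA overlaps BRD2, a chromatin reader on the other strand, whose change was -0.21 ± 0.13 (-0.090 without APRIL column 3). Any reads of the overlap are thus uncertain. The annotation used for counting is not given, so whether it took in that stretch is not known.

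Levels were compared between the genes from the recovered reads, as the usual level per kilobase of each gene's principal transcript and per megaread recovered (RPKM of the recovered reads), since the deposited values are divided by a number per gene that did not follow transcript length (Spearman's rho = -0.00020 over 9856 genes). On this scale CD74 averaged 293 ± 22.3 with APRIL and 238 ± 27.0 in control (SD, n = 4 each). HLA-DRA averaged 38.9 ± 5.27 with APRIL and 35.9 ± 6.28 in control. HLA-DMA averaged 10.4 ± 2.24 with APRIL and 8.47 ± 2.7 in control. HLA-DPA1 and HLA-DPB1 were lower still, at 6.80 ± 1.4 and 4.52 ± 1.96 with APRIL and 5.44 ± 1.5 and 6.51 ± 2.93 in control. The order was therefore CD74, HLA-DRA and then HLA-DMA, whose libraries did not overlap with each other's range, followed by the HLA-DP chains, which overlapped with HLA-DMA and with each other. Per library the level of CD74 was 6.17 to 8.72 times that of HLA-DRA with APRIL and 4.45 to 8.15 times in control. These ratios took 981 bases for CD74 and 1280 for HLA-DRA. With the 1727 bases of the longest CD74 transcript they would be lower. CD74 held 74.9% to 80.4% of the reads of the 5 genes with APRIL and 70.7% to 77.7% in control. Genes of the HLA family resemble each other and differ between people, so reads can be split between relatives or lost against the reference, and no level here counts as exact.

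**Figure D2:**
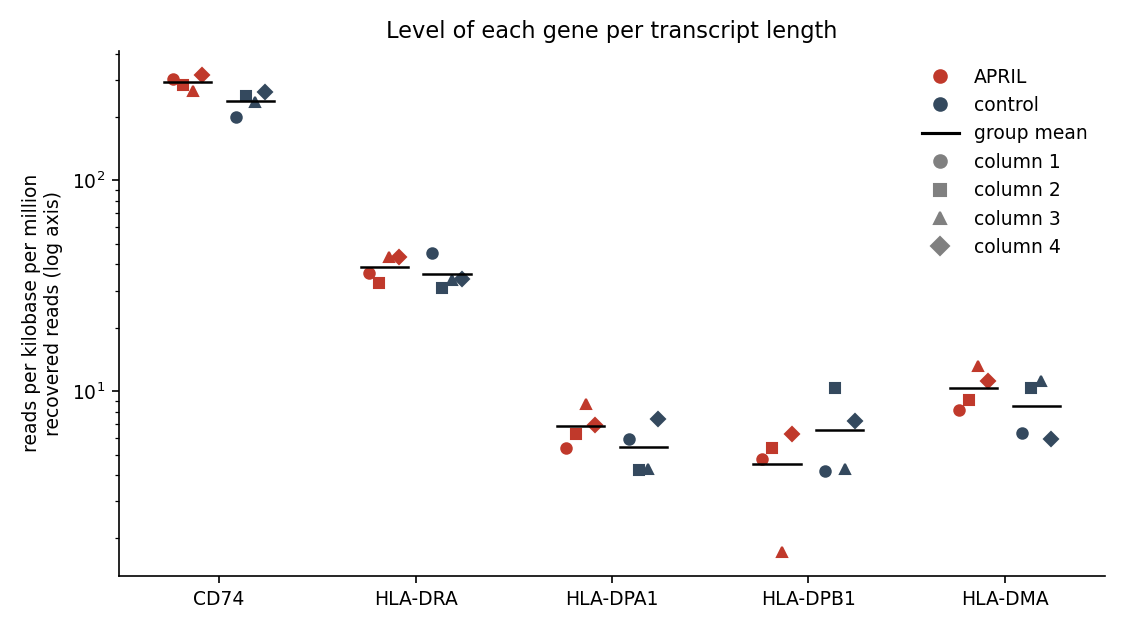
Level of each gene in recovered reads per kilobase of principal transcript and per megaread (log axis), APRIL left and control right within each gene, with lines at the group means of 4 libraries and symbols giving the column. CD74 lies at 201 to 318 in all 8 libraries, HLA-DRA at 30.8 to 45.1 and the other genes at 1.73 to 13.2.

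Over the 8 libraries, which differ in depth and may not be independent, Pearson's r between 2 genes of the set ran from -0.67 (HLA-DRA and HLA-DPB1) to 0.66 (HLA-DRA and HLA-DPA1), as a description. CD74 and HLA-DRA, the 2 genes with the most reads, had r = 0.024, or -0.46 after each group's own mean was subtracted. The mean log2 value of the 5 genes was 2.51, 2.55, 2.7 and 2.81 with APRIL and 2.40, 2.66, 2.42 and 2.56 in control. The groups overlapped on it, with control column 2 above 2 of the APRIL libraries. The genes whose values followed this mean most closely over the 8 libraries were ACSF3, a mitochondrial malonate activating enzyme (r = 0.96), IPO4, a nuclear import receptor (r = 0.95), and SHKBP1, SLC22A31, MAP2K3, ZNF580, TRAF4 and CYHR1 (r = 0.93 to 0.94). With group means subtracted they were PAQR4, ING5, ACSF3, LRRC41, ZNF580, IPO4, TBC1D24 and SHKBP1 (r = 0.92 to 0.97), so ACSF3, IPO4, SHKBP1 and ZNF580 were in both lists. None of the 17 listed class II regulators was among them. Each list is the top 8 out of all tested genes outside the set (11257 with the 5 included). That absence therefore carries no information, and the high r values are a result of the picking as well.

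The listed transcriptional regulators of class II genes, which include the repressor PRDM1 beside the activators, were all in the table. Of these 17 genes 0 passed, 7 changes were positive and 10 negative, and 2 had an unadjusted p under 0.05, ATF1 and NFYA, both lower with APRIL (median of the list -0.083, from -0.12 to -0.073 over the fits without 1 library). CIITA, the co-activator, stood at 2.67, 2.52, 1.98 and 2.79 with APRIL and at 1.61, 3.07, 1.92 and 2.04 in control. Both the highest and the lowest library were controls, and the change was +0.33 ± 0.31 (SE, 95% interval -0.36 to 1.03), with 4 to 41 reads with APRIL and 8 to 16 in control. Leaving out control column 1 gave 0.15, leaving out control column 2 gave 0.63, and leaving out APRIL column 3 gave 0.50. The removal of trends gave 0.52.

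RFX5, RFXAP and RFXANK form the RFX complex. RFX5 stood at 6.44, 6.48, 6.33 and 6.29 with APRIL and at 6.59, 6.63, 6.66 and 6.48 in control, and differed by -0.21 ± 0.11 (SE, adjusted p = 0.410 in limma). The groups met at APRIL column 2 and control column 4, which differed in the third decimal. RFXAP and RFXANK had changes of +0.054 ± 0.21 and +0.24 ± 0.22, and without APRIL column 3 they were at -0.10 and 0.043. With the length and GC trends removed RFXANK was at -0.18. ATF1, a CREB family factor, was at 3.75 ± 0.12 with APRIL and 4.18 ± 0.14 in control (SD, n = 4 each), a change of -0.43 ± 0.14 (SE, adjusted p = 0.3999 in limma). NFYA, the NF-Y subunit that contacts the CCAAT box, was at 5.46 ± 0.17 with APRIL and 5.81 ± 0.083 in control, and differed by -0.35 ± 0.13. For both genes every APRIL value lay below every control value, as for 4.19% of all tested genes. EP300, a histone acetyltransferase, had a change of -0.59 ± 0.30, and it was -0.24 without APRIL column 3. IRF8, a monocyte lineage factor, had every APRIL value above every control value, at +0.16 ± 0.11, or 0.087 without control column 1, and is named after its values were seen.

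**Figure D3:**
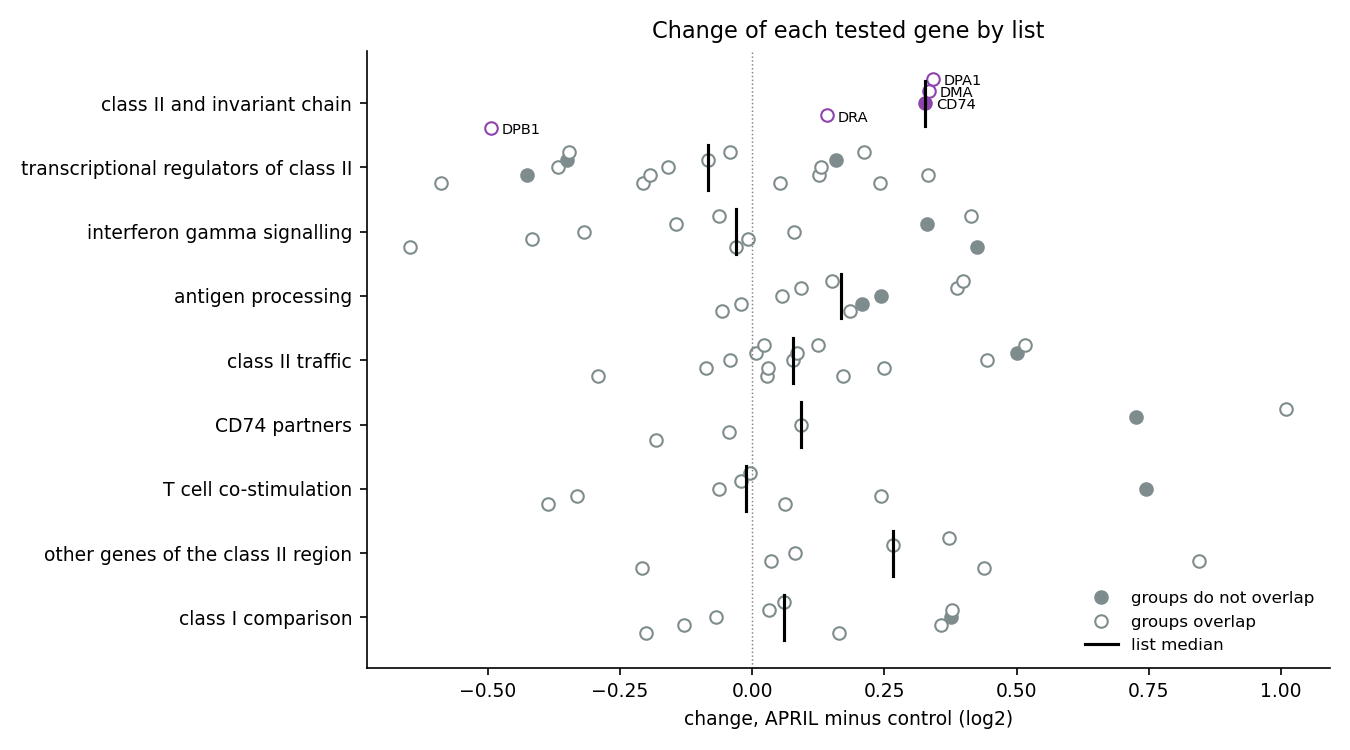
Change of each tested gene, APRIL minus control (log2), by list, with filled points where the 4 APRIL and 4 control values do not overlap, open points where they do, and a bar at the list's median. In the top row CD74 is filled at 0.33 and HLA-DPB1 is the gene below 0, at -0.49, and the class II regulators below it spread to both sides of 0.

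Interferon gamma signalling is the main inducer of class II in monocytes. Of 11 tested genes 0 passed, 4 changes were positive and 7 negative (median -0.031, from -0.067 to 0.023 over the fits without 1 library), and 2 had an unadjusted p under 0.05. IFNGR2, a receptor chain, stood at 10.21 ± 0.23 with APRIL and 9.88 ± 0.075 in control (SD, n = 4 each), a change of +0.33 ± 0.13 (SE), or 0.14 with the trends removed. IRF1, which drives the inducible CIITA promoter, stood at 3.85, 3.84, 4.35 and 3.96 with APRIL and at 3.75, 3.24, 3.65 and 3.66 in control, and differed by +0.42 ± 0.17, or 0.48 with the trends removed. Both genes had every APRIL value above every control value. JAK2, the receptor's kinase, had a change of -0.65 ± 0.30 with overlapping groups, or -0.41 without APRIL column 3.

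The proteins that prepare peptides and degrade the invariant chain gave 10 tested genes, of which 0 passed, 8 changes were positive and 2 negative (median +0.17, from 0.11 to 0.21 over the fits without 1 library, beside -0.0053 over all tested genes). CTSS, the cathepsin that makes the last cuts in the invariant chain, stood at 10.29, 10.37, 10.44 and 10.18 with APRIL and at 10.84, 10.15, 10.27 and 10.24 in control. Control column 1 was the highest library, and the change was -0.056 ± 0.16 (SE, 95% interval -0.41 to 0.29), or 0.10 without that library. CTSD, an aspartic protease of the lysosome, and PSAP, the precursor of the saposins, had unadjusted p-values under 0.05, with changes of +0.40 ± 0.17 and +0.24 ± 0.11, and the groups of CTSD overlapped. CTSD was at 0.0055 and PSAP at 0.13 with the trends removed, and CTSD was at 0.26 without control column 1. CTSH followed at +0.39 ± 0.18, or 0.22 without APRIL column 3. The thiol reductase IFI30 and the legumain gene LGMN had no row in the table.

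Of 15 genes of class II traffic 0 passed, 12 changes were positive and 3 negative (median +0.077, from 0.042 to 0.11 over the fits without 1 library), and CD81 and VPS41 had an unadjusted p under 0.05. CD81, a tetraspanin, stood at 4.19 ± 0.34 with APRIL and 3.69 ± 0.17 in control (SD, n = 4 each), a change of +0.50 ± 0.19 (SE), with every APRIL value above every control value, and it was 0.31 with the trends removed. MARCH1, the ubiquitin ligase that takes class II from the cell surface, was at +0.027 ± 0.17, or -0.045 without APRIL column 4 and 0.15 without APRIL column 3, and its relative MARCH8 at +0.44 ± 0.20. VPS41, a tethering protein of late endosomes, was at -0.29 ± 0.12, or -0.065 with the trends removed.

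CD74 also serves as the surface receptor of the cytokine MIF and of its relative DDT, with CD44, CXCR4 and CXCR2 as partners. Of these 5 genes 0 passed and 1, DDT, had an unadjusted p under 0.05. DDT stood at 8.76, 8.53, 9.67 and 8.81 with APRIL and at 7.91, 8.39, 8.22 and 8.34 in control. The groups did not overlap, APRIL column 3 was the highest library, and the change was +0.73 ± 0.23 (SE, 95% interval 0.21 to 1.24, adjusted p = 0.3999 in limma), or 0.48 without that library and 0.32 after the removal of trends. MIF stood at 2.97, 2.65, 4.92 and 3.17 with APRIL and at 1.80, 2.89, 2.22 and 2.75 in control. APRIL column 3 was again the highest and the groups overlapped. The change of MIF was +1.01 ± 0.46, or 0.51 without APRIL column 3 and 0.40 after the removal of trends. The receptor partners CXCR4, CXCR2 and CD44 were at +0.092 ± 0.10, -0.18 ± 0.22 and -0.043 ± 0.12, each within 1 SE of 0. Without APRIL column 3 they were at 0.047, -0.051 and 0.0074.

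T cell co-stimulation, the second signal that accompanies class II, gave 8 tested genes with 0 passed, 3 positive and 5 negative changes (median -0.012, from -0.086 to 0.047 over the fits without 1 library, the last without APRIL column 3). TNFSF9, the ligand of 4-1BB, had every APRIL value above every control value, at 1.38 ± 0.59 with APRIL and 0.64 ± 0.16 in control (SD, n = 4 each), a change of +0.74 ± 0.28 (SE), or 0.45 without APRIL column 3. TNFSF4, the ligand of OX40, was at -0.39 ± 0.19 (-0.25 without control column 1), and CD86, a ligand of CD28, at -0.33 ± 0.21, or -0.17 without APRIL column 3. CD80 and CD40 had no row in the table.

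Other genes of the class II region on chromosome 6 gave 7 tested genes with 0 passed, 6 positive and 1 negative change (median +0.27, or 0.099 with the trends removed). The immunoproteasome subunit PSMB9 was at 2.44, 2.15, 4.19 and 2.42 with APRIL and at 1.59, 1.68, 2.37 and 2.19 in control. APRIL column 3 stood far above the rest, and the change of +0.85 ± 0.41 (SE) was 0.38 without it. PSMB8 was at +0.44 ± 0.23, or 0.20 without APRIL column 3, and RING1 at +0.37 ± 0.16, or -0.020 with the trends removed. The peptide transporter subunits TAP1 and TAP2 were at +0.27 ± 0.14 and +0.036 ± 0.12, and TAP2 was at -0.0029 without APRIL column 2.

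The class I genes give a comparison from the same family. HLA-B and HLA-C had changes of +0.38 ± 0.15 and +0.38 ± 0.18 (SE), close in size to that of CD74, and 0 of 9 tested class I genes passed (6 positive and 3 negative changes, median +0.061, from 0.057 to 0.14 over the fits without 1 library). HLA-B had every APRIL value above every control value, and the groups of HLA-C overlapped. With the length and GC trends removed they were at 0.012 for HLA-B and -0.019 for HLA-C. HLA-B was at 0.26 without APRIL column 3 and HLA-C at 0.23. B2M, the light chain of class I, was at +0.031 ± 0.16, or -0.11 without APRIL column 3.

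Markers of the line and of other cell types were set beside these values. Over the 16 monocyte and myeloid blast markers the summed linear value was 25469 to 28452 with APRIL and 17724 to 25383 in control. ITGB2, an integrin chain whose own groups overlapped, made up 81.5% to 89.3% of that sum, and without it, a step added after the values were seen, the sum was 2728 to 4720 with APRIL and 2438 to 2801 in control, which overlap. Of the 16 markers 0 passed, 12 changes were positive and 4 negative (CD36, LYZ, CSF1R and ITGAX). The groups of 13 overlapped, with ELANE, S100A9 and FCGR2A the others, each higher with APRIL, as for 3.62% of all tested genes. Their changes were +0.73, +0.75 and +0.29. Without APRIL column 3 they were 0.50, 0.24 and 0.28, and with the trends removed 0.13, 0.32 and 0.26. The median change of the list was +0.18, or 0.060 with the trends removed. The 6 B cell markers summed to 101 to 127 with APRIL and 102 to 119 in control. The 4 dendritic cell markers summed to 3737 to 5048 with APRIL and 5039 to 5922 in control, of which FLT3 made up at least 92.9%. Without FLT3, a step also added after the values were seen, they summed to 194 to 266 with APRIL and 178 to 233 in control, which overlap. Of their changes 1 was positive (BATF3, +0.78 ± 0.33) and 3 were negative. FLT3 was at -0.24 ± 0.13 (SE), or -0.14 without APRIL column 3. MS4A1, CLEC9A and CD1C had no row. The 2 T and NK cell markers, NKG7 and CD8A, summed to 1863 to 4693 with APRIL and 1724 to 1955 in control, of which NKG7 made up at least 99.5%. The sums mix genes whose values carry different divisors, and their part in the CD74 difference was not tested.

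**Figure D4:**
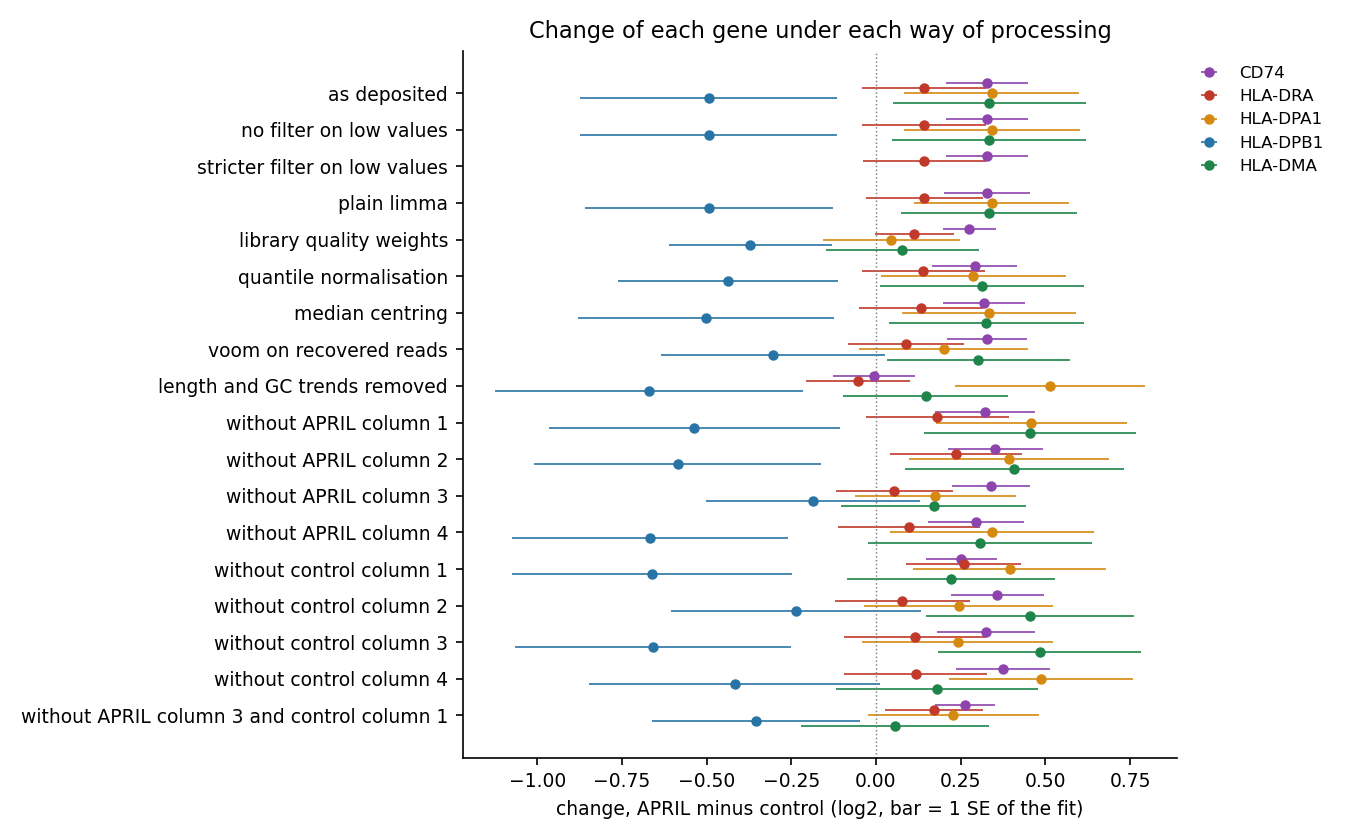
Change of each of the 5 genes, APRIL minus control (log2), under each way of processing, with bars of 1 SE of the fit; the stricter filter on low values leaves CD74 and HLA-DRA alone. CD74 lies between 0.25 and 0.37 in every row but the removal of length and GC trends, where it is at -0.0069, and HLA-DPB1 is below 0 in every row where it was tested.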

How the data were processed

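RNA of 4 APRIL and 4 control libraries was measured with the Illumina TruSeq RNA v2 kit, per the labels' protocols. The submitters' processing notes name bcl2fastq, TopHat2 2.0.13 and the build hg19. The counter, annotation and filters used upstream are not given here. Per the file headers, the authors deposited log2 values scaled by a TMM factor, a p-value and a linear fold of APRIL over control.

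Testing took the 11257 genes that reached a linear value of 1 in 4 or more libraries and left out 273. The test was limma 3.58.1 in R 4.3.3, two-sided, with an intensity trend, robust empirical Bayes and Benjamini-Hochberg adjustment, the group being its only term. Changes are differences of group means, APRIL less control, of the deposited log2 values. Whole reads were recovered as log2 of reads plus 0.5 over a divisor per gene and a constant per library, accepted at a chance expectation under 0.001, for 93.4% of genes (0 of 500 with the constants moved). Read totals cover the recovered genes, not whole libraries. Length and GC content came from the longest GENCODE transcript of each gene, and per-library trends were natural splines with 5 degrees of freedom in each. Other steps used Python 3.11.15 (scipy 1.17.1, pandas 2.3.3, numpy 2.4.6; plots with matplotlib 3.10.9).

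The genes and lists were chosen with earlier results of these data known. Named genes were the 5 present, CIITA, the RFX genes, CTSS and the 3 tested genes of smallest p in each list, of which some are not reported here; alike genes were the 8 of highest Pearson's r with the mean of the 5, by either measure. MARCH1, CXCR2, CD44, TAP1, TAP2, B2M, BRD2 and IRF8 were added after their values were seen. The fit and the read recovery were tested on simulated data.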

Additional observations from a re-analysis of the deposited data

Results flagged for a closer look

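A library far from the other 3 of its group was looked for in 68 groups of 4 libraries, those of the 34 named genes, and 8 groups had one. Chance alone gives about 1 in 20 groups. None was a group of the 5 class II and invariant chain genes. Of the 8 libraries, 6 were APRIL column 3, which was also the shallowest.

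APRIL column 3 was low for the regulators NFYA, at 5.2 against 5.53 to 5.55 in the other APRIL libraries, and EP300, at 7.84 against 9.12 to 9.36. It was high for PSAP, at 12.4 against 12.2 in the other 3, for TNFSF9, at 2.26 against 0.99 to 1.18, for PSMB9, at 4.19 against 2.15 to 2.44, and for HLA-C, at 9.55 against 8.93 to 9.03. Control column 3 was low for CTSH, at 4.94 against 5.12 to 5.15 in the other controls, and high for TNFSF9, at 0.88 against 0.54 to 0.58. The log2 values are as deposited, and the part of depth in these gaps was not tested.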

How the results depend on the processing

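No paired analysis was possible because the columns of the deposited table carry no replicate numbers. A count test of the recovered reads other than voom was not run, since the deposited unit is log2. The number of genes called was 0 under each alternative except library quality weights, which called 4, none of the 5 genes. The exact permutation test could call none here, since its p cannot go below 0.0286 and its smallest adjusted p over all genes was 0.352. Genes at an unadjusted p under 0.05 were 1344, and 507 to 2247 over the fits without 1 library (507 without control column 1, 669 without APRIL column 4, 813 without control column 3, 2247 without APRIL column 2), 858 with length and GC trends removed, 846 without APRIL column 3 and control column 1, and 879 by exact permutation. Of 87 values of the 5 genes under alternatives, 85 kept their direction and their side of the threshold. The other 2 came with length and GC trends removed, HLA-DRA at -0.053 and CD74 at -0.0069, and the cause was not tested. Both filter settings, plain limma and the exact permutation test use the same group means as the main fit. A change of direction was not possible there for any gene, so this count and the next overstate how far the values were tried. The stricter filter tested neither HLA-DP chain nor HLA-DMA. The median change of the 5 genes was 0.077 with quality weights and -0.0069 with the trends removed. Of 512 values of other named genes, 16 changed sign. With the trends removed these were RING1 (-0.020), HLA-C (-0.019), RFXANK (-0.18) and CTSS (0.10). With quality weights they were CD86 (0.015), RFXAP (-0.24), RFXANK (-0.065) and CTSS (0.018). RFXAP was at -0.00082 with voom, CXCR4 at -0.013 with quantile normalisation, and RFXAP, RFXANK and CTSS at -0.18, -0.059 and 0.058 without APRIL column 3 and control column 1. When each library was left out RFXAP ran from -0.10 to 0.17 and CTSS from -0.13 to 0.10. Depth limits the HLA-DP chains and HLA-DMA, at 2 to 46 reads a library.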
